A study of Mus musculus with 8 samples.

Results

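The retained introns of induced germinal center B cells (iGBs) lacking Prmt5 were examined. The set held 337 introns in 337 genes, which was every intron the authors deposited as differently retained between Prmt5-null and control iGBs, out of 1918 deposited splicing events of all kinds. The authors kept an intron for its difference in retention between the genotypes, so that difference describes the set and no test is run on it. Per the study's methods, event kinds were analyzed separately and only the most significant event of a gene was kept. Genes also needed a mean normalized expression above 50. A single intron per gene therefore reflects that filter. iGBs were splenic C57BL6/J B cells cultured on 40LB feeder cells, a fibroblast line that presents CD40L and BAFF, with IL-4 at 1 ng/mL, and were taken at day 4 after elutriation from the feeders. The 4 Prmt5-null samples came from mice with floxed Prmt5 alleles and Cγ1-cre and the 4 controls from mice with Cγ1-cre alone, so both genotypes carried the recombinase, which acts in activated B cells. Prmt5 itself was at 11084, 11267, 11657 and 13088 normalized counts in control libraries and at 1060, 1291, 1808 and 1994 in Prmt5-null libraries, so all 4 Prmt5-null libraries lay below all controls and none was at 0. B cell marker genes summed to between 540215 and 585816 normalized counts in controls and between 541279 and 598332 in Prmt5-null libraries. Reads on genes ranged from 36731721 to 50366174 per library.

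Prmt5 adds symmetric dimethyl groups to arginines, among them arginines of Sm proteins, the ring that holds the small nuclear RNAs of the spliceosome. The spliceosome finds an intron by its ends. U1 small nuclear RNA pairs with the donor site, which spans the last bases of the exon and the first bases of the intron, and other factors recognize the pyrimidine tract and the AG at the acceptor site. An intron that is not removed stays in the RNA, where it can hold the transcript in the nucleus or bring a stop codon into the reading frame. RNA was total RNA depleted of ribosomal RNA, which also holds RNA not yet spliced, so an intron kept in finished mRNA and one still to be removed cannot be told apart here.

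Donor sites are shown first, because the comparison that follows is about their letters. Each run gives 6 exon bases in lower case, then in capitals the 9 bases of the donor site (the last 3 of the exon and the first 6 of the intron), then intron bases in lower case, read 5′ to 3′ on the gene's own strand from GENCODE transcripts of the GRCm38 build that keep the intron. Only introns between coding exons are shown, which leaves out Naa16, Fam21, Pacrgl, Tcp1 and Bcl6, all described below. Among introns between coding exons, the first 5 had the largest gains in retention where no library had fewer than 20 reads behind the level. The next 5 belong to genes that the study named, as does Dvl1. The last 5 had the largest drops among introns between coding exons at the same depth. For Iqce the transcript starts with the 3 exon bases in capitals.
Wdr90, chr17:25860691-25860717, minus strand: ccaggaGAGGTGGTGacatttggtcca
Phkg2, chr7:127577702-127577728, plus strand: cccataTCAGTGAGGctgcattccctg
Dvl1, chr4:155853750-155853776, plus strand: ctccttCCAGTAAGGccccttgcgggg
Uba7, chr9:107979450-107979476, plus strand: ctaccaACAGTAAGGccaacaacagag
Ctsa, chr2:164834200-164834226, plus strand: ccactaCTGGTGCTTggcttggcccta
Jak3, chr8:71680789-71680815, plus strand: acccatCACGTTAGGagctagttgggg
Fancg, chr4:43007250-43007276, minus strand: gccgccAAGGTCTAGcaatccaaatca
Rtel1, chr2:181351691-181351717, plus strand: cagaaaACTGTGAGCtccaaatgcccg
Chd1l, chr3:97588222-97588248, minus strand: actacaGAGGTGACTccccctgcccac
Prmt5, chr14:54516479-54516505, minus strand: caggaaGGGGTAGGGaccatcccctgt
Trmt2a, chr16:18250993-18251019, plus strand: attcatCCGGTGGGGaccttgcctggg
Iqce, chr5:140677398-140677418, minus strand: GAGGTACCAtgtggcagggat
Zbtb21, chr16:97951452-97951478, minus strand: aggagtTTGGTGAGTtggaggggacga
Ncf1, chr5:134221970-134221996, minus strand: agggcaGAGGTAAGTtcttagggttcc
Metap2, chr10:93880055-93880081, minus strand: agagagGACGTTAGTgtcttacgagtc

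For comparison, 2624 other annotated introns were used. They were at least 50 bases long, lay in 1768 genes with a mean normalized count above 50, and were spliced out in one annotated transcript and kept as part of a single exon with the same ends in another, which is the form in which rMATS looks for a retained intron. Of the 337 retained introns, 318 had that form in the annotation used here. The commonest letter at each of the 9 donor positions of the comparison introns spelled CAGGTAAGT, and each donor site was scored by how many positions carried that letter.

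Introns with higher retention in Prmt5-null iGBs had fewer of these letters than the comparison introns. The mean was 5.49 of 9 for the 293 introns with higher retention, 6.25 for the 44 with lower retention and 6.02 for the comparison introns. Donor sites with 7 or more of the commonest letters made up 14% of the introns with higher retention, 43.2% of those with lower retention and 33.5% of the comparison introns. Among the 77 introns whose retention was higher by 0.25 or more, 1.30% had such a donor site, which was the single intron of Rbm5. Sites with 5 or fewer of the letters made up 52.2% of the introns with higher retention, 68.8% of those higher by 0.25 or more and 30.6% of the comparison introns. The donor letters took no part in choosing the introns, and the shares are given as a description, with no test over introns.

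**Figure D1:**
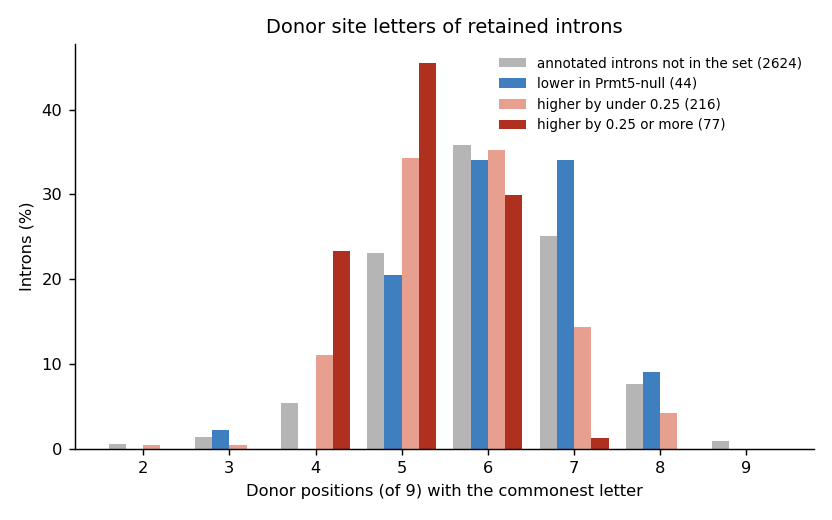
The horizontal axis gives how many of 9 donor positions carry the commonest letter of the comparison introns, the vertical axis the percentage of introns in each group, and the number of introns stands in the legend. Introns higher by 0.25 or more (dark red) lie furthest left, with 1.30% at 7 or more, and introns with lower retention (blue) reach 43.2% there, beside 33.5% for annotated introns not in the set (grey).

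The next counts and medians regroup the same introns by donor class and add no separate evidence. The differences used are those that chose the set. Retention was higher in Prmt5-null iGBs in 44 of 45 introns with 4 or fewer of the commonest letters, in 109 of 118 with 5, in 99 of 114 with 6 and in 41 of 60 with 7 or more. Among introns with higher retention, the median difference was 0.235, 0.186, 0.164 and 0.147 in these 4 classes. Single positions differed as well. An A in the next-to-last exon base was found in 45.1% of introns with higher retention and in 59.0% of comparison introns, and a G in the last exon base in 69.6% and 78.2%. An A at intron base 3 was found in 38.2% and 49.0%, and a G there in 49.5% and 40.9%. A T at intron base 6 was found in 35.2% and 44.8%, and a G there in 30.03% and 19.4%. A G at intron base 5 was found in 68.6% of introns with higher retention, 86.4% of those with lower retention and 74.6% of comparison introns. G at both the last exon base and intron base 5 was found in 41.3%, 63.6% and 55.9%, in the same order.

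On the acceptor side, pyrimidines filled 74.4% of positions 20 to 5 before the end of introns with higher retention, 75.3% of those with lower retention and 73.8% of the comparison introns. A C just before the closing AG was found in 70.6%, 65.9% and 65.6%, in the same order, and in 76.6% of introns higher by 0.25 or more. Within introns of 500 bases or shorter it was found in 76.0% of those with higher retention and 68.3% of comparison introns, while a G at intron base 5 was found in 74.5% and 75.3%. At that length 12.5% of those with higher retention had 7 or more of the commonest donor letters, beside 31.2% of comparison introns. Between coding exons these shares were 12% and 35.0%, and in genes with a mean above 500 they were 14.3% and 34.2%. GT opened 331 of the retained introns and GC opened 5. The remaining one, in Rnf123, a ubiquitin ligase gene, opened with AT and ended with AC. A start of the letters GTATCC or ATATCC, typical of introns of the minor spliceosome, was found in 1 retained intron (Trafd1) and in 1.143% of comparison introns. The Rnf123 intron began with ATATCA, which this exact match does not count, and its class was not tested.

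The retained introns were short, and so were the introns of the same annotated form. Their median length was 246 bases (quartiles 111 and 680), beside 254.5 bases (quartiles 110.0 and 733) for the comparison introns and 1395 bases for all 161378 annotated introns of genes with a mean above 50. The shortest, of 64 bases, was in Inpp5e, an inositol phosphatase gene, and the longest, of 3329 bases, in Rbm5. Introns of at most 100 bases made up 21.1% of the set and 21% of the comparison introns, and those over 1000 bases 17.5% and 17.5%. Median length was 234 bases for introns with higher retention and 553.5 bases for those with lower retention. Retention was higher in Prmt5-null iGBs in 66 of 71 introns of at most 100 bases and in 47 of 59 over 1000 bases. Of the 320 introns whose junction is in the annotation, 216 were shorter than the median of the other introns of their transcript. The same count was not made for the comparison introns, so it is not read as a trait of the set. The median GC content was 52.5%, against 51.7% in the comparison introns. Of these 320, the retained intron was the last of its transcript in 5.94%, against 9.82% of comparison introns, and the first in 3.75%, against 3.67%.

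**Figure D2:**
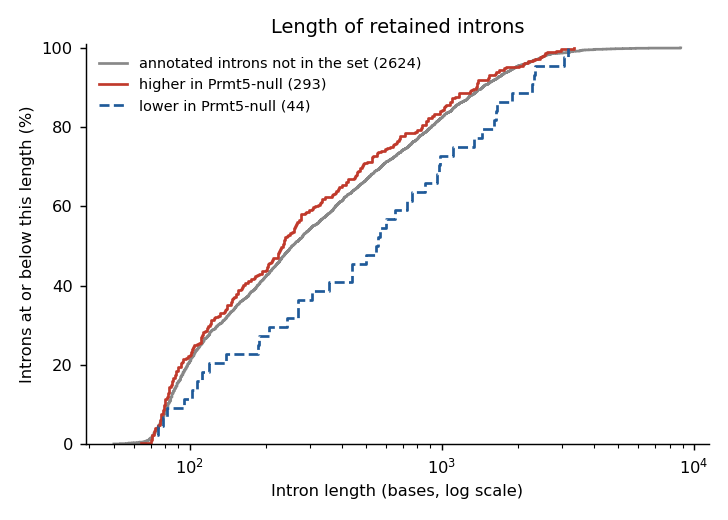
The horizontal axis is intron length in bases on a log scale and the vertical axis the percentage of introns at or below that length, for introns with higher retention (red), lower retention (dashed blue) and annotated introns not in the set (grey). The red and grey curves run close together around medians of 234 and 254.5 bases, and the blue curve lies to the right with a median of 553.5 bases.

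Most of the introns interrupted a reading frame. Of the 337, 279 lay between coding exons, 9 in a 5′ UTR, 6 in a 3′ UTR and 26 in non-coding transcripts, and for 17 no transcript in the annotation used here had the junction. Reading on from the upstream exon, 230 of the 279 introns between coding exons met a stop codon in frame, a share of 82.4%, beside 85.6% of comparison introns between coding exons. The first stop came a median of 41.5 bases into the intron. A further 33 held no stop and had a length that was not a multiple of 3, which shifts the frame downstream. The other 16 introns, 5.73% of those between coding exons, had a length that is a multiple of 3 and no stop, beside 6.20% of comparison introns. One of these was in Skiv2l, a helicase of the complex that feeds RNA to the cytoplasmic exosome. The transcript that keeps the intron was annotated as a retained intron for 275 of the 337, as protein coding for 39 and as a target of nonsense-mediated decay for 25, with some introns counted under more than 1 type.

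A retention level is the share of transcripts that keep the intron, estimated from reads on the intron and its edges against reads across the spliced junction, each per base of usable length, and runs from 0 to 1. Levels are the authors' values, and each genotype has 4, which the files list without library names. Over the 293 introns with higher retention in Prmt5-null iGBs, the median of the intron means was 0.237 in controls and 0.450 in Prmt5-null iGBs, and the median difference was 0.179. Over the 44 with lower retention the medians were 0.733 and 0.479, and the median difference was -0.172. The 4 values of one genotype lay apart from the 4 of the other in 190 of the 293 introns with higher retention and in 15 of the 44 with lower retention. Since the introns were chosen on these values, the counts describe the set.

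Baseline retention went with direction. All 13 introns with a control mean under 0.05 had higher retention in Prmt5-null iGBs, as had 111 of 112 with a control mean from 0.05 to 0.2 and 112 of 122 from 0.2 to 0.5. Above 0.5, 57 of 90 were higher. An intron near 1 in controls can only be lower and one near 0 only higher, so these counts follow in part from the scale. Introns with a mean retention level over 0.5 numbered 90 in controls and 148 in Prmt5-null iGBs. Across the 337 introns, Spearman's rho of length with the control mean was 0.19, as a description over introns that share the same 8 libraries.

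**Figure D3:**
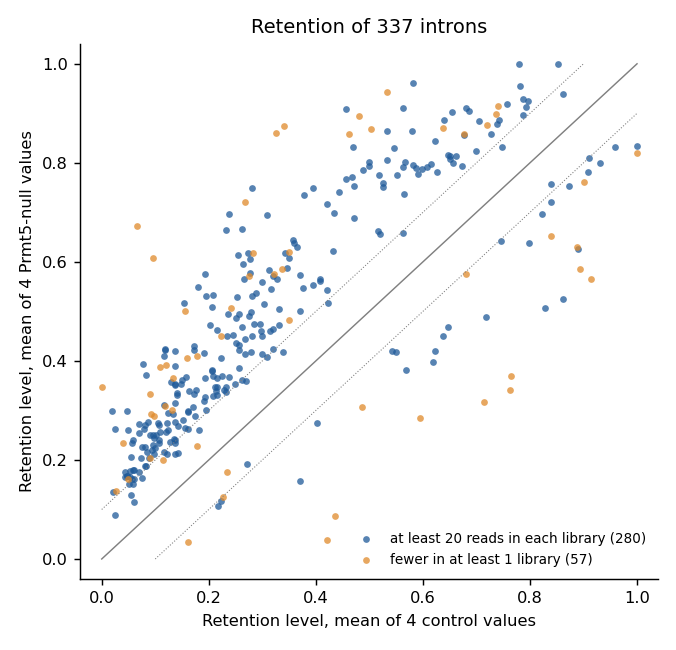
Each point is one of the 337 introns, with the mean of the 4 control values on the horizontal axis and the mean of the 4 Prmt5-null values on the vertical axis, blue for the 280 introns with at least 20 reads in each library and orange for the rest. The solid line marks equal levels and the dotted lines a difference of 0.1, and 293 points lie above the solid line, many of them with control means below 0.5.

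Within a genotype, the values went with their place in the authors' lists, each of which has 4 places. Among the 293 introns with higher retention, the second Prmt5-null value was the highest of its 4 in 150 introns and the third the lowest in 154. The first control value was the lowest of its 4 in 142 introns and the fourth the highest in 132. Median levels were 0.183, 0.205, 0.261 and 0.278 for the control values in list order and 0.416, 0.516, 0.400 and 0.459 for the Prmt5-null values. Every Prmt5-null median lay above every control median, an order largely set in advance because these introns were picked for higher Prmt5-null means. Without any one of the 8 places, retention was higher in Prmt5-null iGBs in 291 to 295 introns. The authors chose the introns on the same values, so these counts describe the set and are no independent check. Depth also varied between introns. Reads behind one intron ranged from 29 to 29409 over the 8 libraries with a median of 821, and 280 introns had at least 20 reads in each library, of which 253 had higher retention.

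Introns with fewer reads reached larger differences, from -0.421 in Enpp5 to 0.607 in Plxna3, with as few as 2 reads in one library for Enpp5 and 1 for Plxna3. Among the 280 deeper introns, the largest gain was in Wdr90, which encodes a WD repeat protein of the centriole. Its intron, chr17:25860543-25860708, intron 3 of 40 and 166 bases long (ENSMUSG00000073434), had levels of 0.212, 0.236, 0.335 and 0.340 in controls and 0.614, 0.758, 0.785 and 0.840 in Prmt5-null iGBs. Reads that keep it went from 123 over the 4 control libraries to 206 over the 4 Prmt5-null libraries, and spliced reads from 134 to 29. Every Prmt5-null value was thus above every control value, with fewer spliced reads as well as more intron reads. The intron of Phkg2, the gene of a catalytic subunit of phosphorylase kinase, had levels of 0.162, 0.188, 0.263 and 0.337 in controls and 0.585, 0.683, 0.727 and 0.791 in Prmt5-null iGBs, with 336 spliced reads in controls and 98 in Prmt5-null iGBs. It is 264 bases long, at chr7:127577711-127577974 (ENSMUSG00000030815). Of the 8 largest gains at this depth, Wdr90 and Phkg2 had 4 of the 9 commonest donor letters, Uba7, Ctsa and Pacrgl 5, and Dvl1, Naa16 and Fam21 6.

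Dvl1, which encodes a Dishevelled protein of Wnt signaling, had levels of 0.096, 0.199, 0.258 and 0.373 in controls and 0.572, 0.667, 0.671 and 0.748 in Prmt5-null iGBs for its intron 3 of 14 at chr4:155853759-155853982. Intron reads numbered 192 in controls and 855 in Prmt5-null iGBs, and spliced reads 266 and 145. Uba7, the activating enzyme for the ubiquitin-like protein ISG15, had levels of 0.155, 0.286, 0.294 and 0.311 in controls and 0.587, 0.665, 0.688 and 0.727 in Prmt5-null iGBs at an intron of 85 bases, chr9:107979459-107979543. In both genes the groups did not overlap. Ctsa, which encodes the lysosomal protease cathepsin A, had levels of 0.161, 0.2, 0.203 and 0.211 in controls and 0.420, 0.544, 0.642 and 0.692 in Prmt5-null iGBs at chr2:164834209-164834319, so the Prmt5-null values spread more widely than the controls and stayed above them. The intron in the 5′ UTR of Pacrgl had levels from 0.226 to 0.483 in controls and from 0.578 to 0.820 in Prmt5-null iGBs.

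Naa16 and Fam21 also ranked among the 8 largest gains, with less depth on the spliced form. Naa16, an auxiliary subunit of an N-terminal acetyltransferase, had control levels of 0.335, 0.373, 0.476 and 0.639 and Prmt5-null levels of 1, 1, 1 and 0.634, so that one Prmt5-null value lay inside the control range. Only 21 spliced reads in controls and 3 in Prmt5-null iGBs stand behind them. Fam21, a subunit of the WASH complex on endosomes, had levels from 0.218 to 0.806 in controls and from 0.894 to 1 in Prmt5-null iGBs, from 12 and 3 spliced reads. For both introns the annotation used here has no transcript with the junction.

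**Figure D4:**
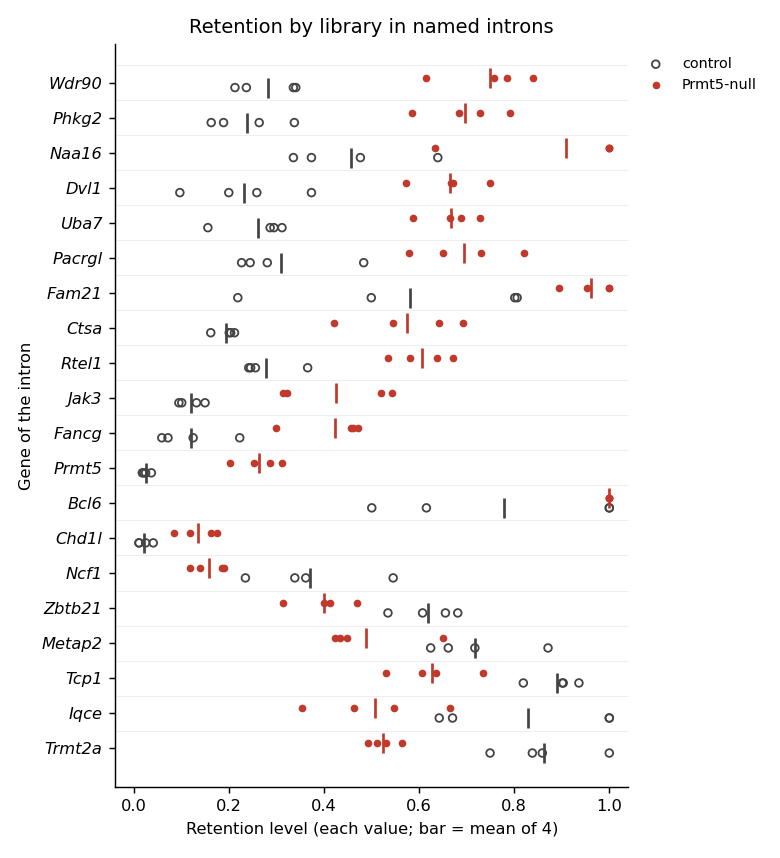
The horizontal axis is the retention level, with the 4 control values of each intron as open circles, the 4 Prmt5-null values as red points and a bar at each mean, and genes are ordered by the difference. For Wdr90, Phkg2, Dvl1, Uba7 and Ctsa all red points lie right of all open circles, for Trmt2a, Tcp1, Zbtb21 and Ncf1 all lie left of them, and for Naa16, Bcl6, Iqce and Metap2 the groups overlap or touch.

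The largest drops among introns with at least 20 reads in each library were in genes of several functions. Trmt2a, which encodes a tRNA methyltransferase, had levels of 0.749, 0.838, 0.859 and 1 in controls and 0.493, 0.511, 0.530 and 0.563 in Prmt5-null iGBs at its intron of 547 bases, chr16:18251002-18251548. Spliced reads numbered 26 in controls and 214 in Prmt5-null iGBs. The groups did not overlap, and the gene Gm49776 lies over the same intron. Tcp1, a subunit of the CCT chaperonin, had levels of 0.819, 0.901, 0.903 and 0.936 in controls and 0.529, 0.605, 0.636 and 0.735 in Prmt5-null iGBs, from 24 and 183 spliced reads. Its intron of 1643 bases holds the annotated small RNA gene Gm26130.

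Zbtb21, a zinc finger gene, had levels of 0.534, 0.607, 0.655 and 0.681 in controls and 0.314, 0.399, 0.413 and 0.469 in Prmt5-null iGBs at an intron of 600 bases that holds no stop in frame. Ncf1, which encodes the p47 subunit of the phagocyte NADPH oxidase, had levels of 0.234, 0.338, 0.361 and 0.545 in controls and 0.118, 0.138, 0.184 and 0.188 in Prmt5-null iGBs at the last intron of the gene. Both introns were lower in every Prmt5-null library than in any control library. Iqce and Metap2 completed the 6 largest drops at this depth. Iqce had levels from 0.642 to 1 in controls and from 0.353 to 0.665 in Prmt5-null iGBs on 2 and 8 spliced reads, and Metap2, a methionine aminopeptidase, had levels from 0.624 to 0.871 and from 0.422 to 0.650, so both pairs of groups overlapped. Of the 6, Ncf1 had 8 of the 9 commonest donor letters, Zbtb21 and Metap2 had 6, and Trmt2a, Tcp1 and Iqce had 5.

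The study named 6 other genes that had a retained intron in the set. In Jak3, the kinase of cytokine receptors that share the common gamma chain, the 85-base intron 8 of 24 at chr8:71680798-71680882 had levels of 0.094, 0.1, 0.131 and 0.149 in controls and 0.313, 0.322, 0.519 and 0.543 in Prmt5-null iGBs. Intron reads numbered 75 and 108 and spliced reads 327 and 95. These are totals not scaled for the gene level, which was itself lower in Prmt5-null iGBs. In Fancg, a member of the Fanconi anemia core complex, the levels were 0.058, 0.071, 0.124 and 0.222 in controls and 0.299, 0.457, 0.461 and 0.472 in Prmt5-null iGBs. In Rtel1, a helicase that protects telomeres, they were 0.241, 0.245, 0.255 and 0.365 in controls and 0.534, 0.581, 0.638 and 0.671 in Prmt5-null iGBs. The groups did not overlap in any of these 3 genes. Of the 9 commonest donor letters, Fancg and Rtel1 had 4, Prmt5 had 5, and Jak3, Chd1l and Bcl6 had 6.

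Chd1l, a chromatin remodeler of the DNA damage response, started lowest, with levels of 0.010, 0.010, 0.024 and 0.040 in controls against 0.084, 0.118, 0.161 and 0.175 in Prmt5-null iGBs. Intron reads of Chd1l numbered 46 and 333. Bcl6, the transcription factor that defines germinal center B cells, had control levels of 0.5, 0.615, 1 and 1 and Prmt5-null levels of 1 in all 4 libraries. Those values rest on 5 spliced reads in controls and 0 in Prmt5-null iGBs, and 2 control values equal the Prmt5-null ones. In Prmt5 itself, intron 2 of 16 at chr14:54516192-54516496 had levels of 0.017, 0.020, 0.024 and 0.036 in controls and 0.201, 0.253, 0.286 and 0.312 in Prmt5-null iGBs. Spliced reads there numbered 2323 in controls and 207 in Prmt5-null iGBs, while intron reads numbered 193 and 266. The floxed segment of Prmt5 is not given in the labels, so its part in this value was not tested.

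The introns fell in genes of many functions, and 146 of the 337 genes were in one of 10 function lists. The lists were written after the names of genes with a retained intron had been read, so how many of their genes had one is no independent evidence of a theme. In every list more introns had higher than lower retention, as in the set as a whole, where 86.9% were higher. Of 114 genes for splicing factors and RNA-binding regulators, 20 had a retained intron, with higher retention in 18 and lower in 2 and a median difference of 0.178. The largest were in Bcas2, a component of the PRP19 complex, with levels from 0.365 to 0.525 in controls and from 0.709 to 0.949 in Prmt5-null iGBs, and in Rbm5, an RNA-binding regulator of exon choice, with levels of 0.494, 0.525, 0.552 and 0.562 in controls and 0.814, 0.871, 0.884 and 0.887 in Prmt5-null iGBs. Luc7l, related to a yeast protein of the U1 particle, had levels from 0.378 to 0.521 and from 0.740 to 0.822. None of these 3 pairs of groups overlapped, and Rbm5 rests on 5380 and 8667 intron reads.

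DNA repair and replication genes gave 20 introns from 109 genes, with higher retention in 19 and a median difference of 0.168. Mutyh, a glycosylase that removes adenine opposite oxidized guanine, led with levels from 0.247 to 0.582 in controls and from 0.609 to 0.831 in Prmt5-null iGBs, ahead of Rtel1 and Fancg. Chromatin and histone modification genes gave 12 introns, 10 of them higher, with a median difference of 0.139. Setdb1, a histone H3 lysine methyltransferase, had levels from 0.171 to 0.295 in controls and from 0.326 to 0.546 in Prmt5-null iGBs, and Hmgn3, a nucleosome-binding protein, from 0.210 to 0.311 and from 0.332 to 0.505. Genes of general transcription and Mediator gave 5 introns, all higher, with a median difference of 0.253. Polr3gl, a subunit of RNA polymerase III, had levels from 0.147 to 0.391 in controls and from 0.515 to 0.650 in Prmt5-null iGBs, and Tcea2, an elongation factor, from 0.073 to 0.183 and from 0.357 to 0.416. Tbp, the TATA-binding protein, differed by 0.365 with as few as 2 reads in one library.

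Genes of the lysosome, sorting and trafficking gave 21 introns from 87 genes, 20 of them higher, with a median difference of 0.225. Beside Ctsa these included Golga1, a Golgi golgin, with levels from 0.079 to 0.399 in controls and from 0.553 to 0.682 in Prmt5-null iGBs, and Ap1g2, an adaptor subunit, from 0.131 to 0.301 and from 0.433 to 0.666. Mitochondrial protein genes gave 19 introns from 79 genes, all higher, with a median difference of 0.178. Rhot2, a GTPase of mitochondrial transport, had levels from 0.032 to 0.132 in controls and from 0.242 to 0.478 in Prmt5-null iGBs. Fahd2a had levels of 0.064, 0.084, 0.141 and 0.143 against 0.124, 0.319, 0.493 and 0.616, so one Prmt5-null value lay within the controls. Slc25a42, a carrier of coenzyme A, had levels from 0.298 to 0.414 in controls and from 0.433 to 0.809 in Prmt5-null iGBs.

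Genes of B cell receptor, CD40, cytokine and NF-kB signaling gave 10 introns from 77 genes, 9 of them higher, with a median difference of 0.190. Siglecg, an inhibitory receptor of B cells, had levels of 0.161, 0.207, 0.220 and 0.247 in controls and 0.499, 0.509, 0.545 and 0.578 in Prmt5-null iGBs at an intron of 70 bases. Ikbkb, the kinase that releases NF-kB, had levels from 0.386 to 0.629 and from 0.731 to 0.899. The groups were apart in both genes. Ubiquitin and ubiquitin-like conjugation genes gave 14 introns, 12 of them higher, with a median difference of 0.167. Mib2, a ubiquitin ligase, had levels from 0.474 to 0.727 in controls and from 0.835 to 0.890 in Prmt5-null iGBs, and Aup1, which recruits ubiquitin enzymes to lipid droplets, from 0.123 to 0.218 and from 0.328 to 0.541.

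Genes of RNA 3′ end formation, decay and non-coding RNA processing gave 8 introns, 7 of them higher, with a median difference of 0.188. Nol9, a kinase of ribosomal RNA processing, had levels from 0.378 to 0.564 in controls and from 0.644 to 0.927 in Prmt5-null iGBs, Nudt16, a nuclear RNA decapping enzyme, from 0.246 to 0.410 and from 0.501 to 0.672, and Skiv2l from 0.163 to 0.261 and from 0.407 to 0.522. Genes of tRNA modification, translation and ribosome gave 18 introns, with higher retention in 13 and lower in 5, and a median difference of 0.132. Gtpbp2, which acts in the rescue of stalled ribosomes, had levels from 0.107 to 0.249 in controls and from 0.490 to 0.654 in Prmt5-null iGBs, and Trmt2b, a mitochondrial tRNA methyltransferase, from 0 to 0.043 and from 0.151 to 0.469. Ribosomal protein genes went both ways. The difference was -0.203 in Rpl41, -0.187 in Rpl27a and -0.126 in Rpl10, and 0.187 in Rpl30 and 0.0945 in Rpl3.

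Small RNA genes were annotated on the same strand inside 6 of the introns. Retention was higher in Prmt5-null iGBs for the introns of Gas5, which holds Snord78 (difference 0.143), Eif4a2, which holds Snora81 (0.129), Arrb2, which holds Mir7115 (0.131), Rpl30 (0.187) and Snhg17 (0.180), and lower only for that of Tcp1 among these 6. Reads from the small RNA gene and from the intron cannot be told apart in these values. Another gene was annotated over 47 of the introns, on either strand.

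Values near the authors' threshold of 0.1 on the difference show how introns entered the set. The 3 introns just inside were those of Abcb6 with a difference of 0.1, Cables2 with -0.101 and Orc3 with 0.102. For 24 introns the difference in the level used here, from reads on the intron and its edges, was under 0.1, and for all 24 the difference from junction reads alone was at least 0.1. They ran from 0.050 in Slc25a53 and -0.0575 in Tbc1d14 through 0.0548 in Ncapg, 0.0635 in Smarcal1, 0.0713 in Pomt1, 0.0740 in Zranb2, 0.0763 in Mroh1, 0.0777 in Vps39, 0.0790 in Man2a2, 0.0793 in Chtf18, -0.0798 in Surf2, -0.0838 in Celf1, 0.0843 in Slc25a37, 0.0857 in Papln, 0.0878 in Ppfibp1, 0.0905 in Phf19, 0.0915 in Chkb, 0.0938 in Gabpb2, 0.0945 in Rpl3, 0.0950 in Ftx, 0.0973 in Med24, 0.0988 in Cnbp and 0.0993 in Rasal3 to 0.0998 in Arfrp1. The direction from junction reads alone differed from that used here in 3 introns, those of Atr (-0.128 and 0.00700), Enpp5 (-0.421 and 0.050) and Tbc1d14 (-0.0575 and 0.108).

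Other kinds of event were deposited for 131 of the 337 genes, a share of 38.9%. A skipped exon was deposited for 78 genes (23.1% of the 337 and 8.54% of the genes with a skipped exon), mutually exclusive exons for 42 (12.5% and 12%), an altered 5′ splice site for 41 (12.2% and 21.6%) and an altered 3′ splice site for 24 (7.12% and 18.8%). All event kinds were chosen on the same 8 libraries, so these shares are given side by side with no test.

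Gene level was compared with limma in the 16250 genes whose mean over the 8 libraries reached 10 normalized counts. A call needed a 1.5-fold change together with a Benjamini-Hochberg adjusted p under 0.05. Of the 337 genes with a retained intron, 45 were called, 36 of them lower and 9 higher in Prmt5-null iGBs. All 337 genes had a mean above 50, which the authors' filter required. Among the 13300 genes above that level the share called was 6.31% (3.17% lower and 3.14% higher). It was 6.48% of all genes tested, and 13.4% of the genes with a retained intron, 10.7% being lower and 2.67% higher. The retention values and the gene levels come from the same libraries and the same contrast, and intron reads inside an annotated exon count toward the gene, so nothing more is read from these shares. Among the 293 genes with higher retention, 34 were called lower and 5 higher, and among the 44 with lower retention 2 were called lower and 4 higher. The median log2 fold change was -0.06 over the 337 genes and -0.0049 over genes with a mean above 50. For genes with retention higher by 0.25 or more, 13 of 77 were called lower and 1 higher.

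**Figure D5:**
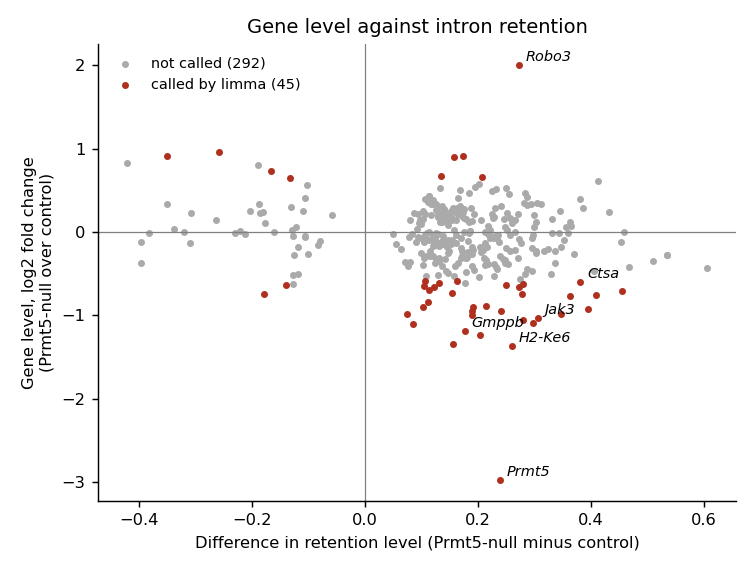
The horizontal axis is the difference in retention level (Prmt5-null minus control) and the vertical axis the log2 fold change in gene level, with one point per intron, red for the 45 genes called by limma and grey for the other 292. Most red points on the right lie below 0, where 34 genes were called lower, and Prmt5 lies lowest.

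Prmt5 fell by 2.98 on the log2 scale (SE 0.167, adjusted p = 6.14e-06). After it, the largest falls were in H2-Ke6, Ankle1, 0610011F06Rik and Gmppb. H2-Ke6 (also Hsd17b8, a mitochondrial steroid and fatty acid dehydrogenase) had 800.3, 924, 952 and 1077 normalized counts in controls and 303, 317, 420.3 and 424 in Prmt5-null iGBs, with every Prmt5-null library below every control, and fell by 1.37 (SE 0.139, adjusted p = 0.000142 from limma). Its intron had levels from 0.191 to 0.373 in controls and from 0.466 to 0.673 in Prmt5-null iGBs. Gmppb, which makes GDP-mannose for glycosylation, had 1676, 1841, 1852 and 2107 normalized counts in controls and 790.3, 796, 828 and 864 in Prmt5-null iGBs, and fell by 1.18 (SE 0.0880, adjusted p = 2.53e-05 from limma). Its intron levels ran from 0.123 to 0.266 and from 0.311 to 0.444. Ankle1, a nuclease, fell by 1.35 (SE 0.302, adjusted p = 0.0120) and 0610011F06Rik fell by 1.24 (SE 0.117, adjusted p = 0.000109), again with no overlap between genotypes.

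Jak3 had 2408, 2614, 2652 and 2806 normalized counts in controls and 981, 1142, 1430 and 1684 in Prmt5-null iGBs, and fell by 1.03 (SE 0.143, adjusted p = 0.000769 from limma), so that spliced Jak3 reads and Jak3 counts were both lower. Chd1l, Dvl1, Rtel1, Fancg and Bcl6 were not called. Of the genes called higher, Robo3, a guidance receptor gene, had 68.9, 74.9, 79.4 and 108 normalized counts in controls and 235, 324, 327 and 480 in Prmt5-null iGBs and rose by 2.01 (SE 0.216, adjusted p = 0.000182 from limma), though as few as 6 reads stood behind its retention level in one library. Camsap3, Rrnad1, Pla2g4b and Pidd1, the last the p53-induced death domain protein, rose by 0.96, 0.92, 0.91 and 0.90 (adjusted p = 0.0270, 0.00738, 0.0143 and 0.00354 from limma). The call of Camsap3, which had 35.7 to 61.8 normalized counts in controls and 58.4 to 119 in Prmt5-null iGBs, was lost without Prmt5-null replicate 10617 or 10771 and without the control libraries CTRL-10370, CTRL-10597 or CTRL-10650, each left out alone. Camsap3 and Pla2g4b had lower retention in Prmt5-null iGBs, with differences of -0.258 and -0.350, and Rrnad1 and Pidd1 higher, with 0.174 and 0.157. Ctsa, with 4012 to 4853 normalized counts in controls and 2012 to 4100 in Prmt5-null iGBs, overlapped between genotypes and fell by 0.60 (adjusted p = 0.0416 from limma), a call that was lost without Prmt5-null replicate 10770 and in most other alternatives.

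By function list, 4 of 79 mitochondrial protein genes fell at the gene level and none rose, 2 of the 4 being among the genes with a retained intron. In DNA repair and replication 4 of 109 fell and 1 rose, in splicing factors and RNA-binding regulators 3 of 114 fell and 3 rose, and in genes of tRNA modification, translation and ribosome 2 of 111 fell and 1 rose. Of B cell receptor, CD40, cytokine and NF-kB signaling genes, 3 rose and 3 fell. Among chromatin and histone modification genes 2 rose and 2 fell, 1 of the falls being Prmt5 itself. Genes of the lysosome, sorting and trafficking had 1 that rose and 2 that fell, genes of RNA 3′ end formation 1 and 1, ubiquitin conjugation genes 1 that rose and none that fell, and genes of general transcription and Mediator 0 in either direction. Beside the 3.14% and 3.17% of all expressed genes called in each direction, these are small counts, given with no test. Zranb2, an SR-related splicing protein, was among the splicing genes that fell, by 0.99 (SE 0.0819, adjusted p = 3.94e-05 from limma).

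Markers of other cell types were summed in the same libraries. Markers of the fibroblast feeder cells summed to between 5740 and 9810 normalized counts in controls and between 8580 and 14866 in Prmt5-null iGBs, and 4 of the 22 tested rose. None of the 24 feeder markers had a retained intron in the set, and 2 of them had a mean under 10. The set holds 337 of the 13300 genes with a mean above 50, so this count is not read as a result. T cell and myeloid markers summed to between 743 and 894 in controls and between 438 and 523 in Prmt5-null iGBs, with Cd3e, S100a8 and S100a9 at 0 in every library. Of the 14 found, 10 had a mean under 10 normalized counts, so the sums rest on few genes. Of the 4 tested, 1 was called lower, and their median log2 fold change was -0.103. Markers of germinal center-like B cells summed to between 67840 and 77392 in controls and between 79031 and 88118 in Prmt5-null iGBs. The higher sum was not shared by all 11 of these markers. By limma 1 was called higher and 2 lower, and their median log2 fold change was -0.076. The part of these cells in the retention levels was not tested, since the levels carry no library names.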

How the data were processed

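RNA from 4 Prmt5-null and 4 control iGB samples was sequenced after ribosomal RNA depletion. Per the labels and the study's methods, the authors trimmed reads with Trimmomatic (0.32), aligned them to GRCm38/mm10 with STAR (2.3.0e), counted genes with featureCounts (1.4.4), scaled with DESeq2 (1.14.1) and detected splicing events with rMATS. The members and lists were chosen with earlier results of these data known.

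The deposited gene table holds counts divided by a DESeq2 size factor, a normalized signal, and 100% of its values in each library gave whole reads within a tolerance of 0.001. The deposited retention levels are fractions from 0 to 1, with deposited counts of intron and spliced reads, listed by genotype without library names. All levels used were recomputed within rounding from those counts. The planned design would have taken, for each intron, the level from junction reads or from junction and intron reads by the authors' adjusted p. The authors' deposited p-values, q-values and differences between genotypes (a signed score, per the file headers) were not used, so the level from junction and intron reads (fraction, per the file headers) was taken for every intron, with the junction level as an alternative. Counts on the intron cover counting error only.

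Intron ends, reading frames and donor letters came from GENCODE M21 (GRCm38). Gene levels were tested with limma (3.58.1, R 4.3.3) on log2(value + 1) with a mean of at least 10, all 8 libraries, no covariate, and a Benjamini-Hochberg adjusted p below 0.05 with 1.5-fold. edgeR (4.0.16) quasi-likelihood and DESeq2 (1.42.0) on the recovered counts were alternatives. The limma step was tested on simulated data. Intron tables were made with Python (3.11.15) and pandas. Named introns were the 8 largest gains and 6 largest drops with at least 20 reads in each library, genes the study named, the 3 largest differences of each list, the 5 largest rises and falls in gene level, introns at the threshold, and the shortest and longest. p-values measure the spread between these samples, which the study's methods call independent biological samples.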

Additional observations from a re-analysis of the deposited data

Results flagged for a closer look

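The introns considered here are those with the largest gains or drops and those of genes the study named. In 5 of them, one of the 4 values of a genotype stood further from the other 3 than Dixon's test for 4 samples allows. Chance flags about 1 in 20 groups, and each intron gives a group per genotype. Some such flags therefore come by chance alone, and these are not read as a result. Abcb6, named for its place at the threshold, also had such a value, 0.291 in Prmt5-null iGBs beside 0.099, 0.101 and 0.116. The retention level of Fancg was 0.299 in one Prmt5-null library and 0.457 to 0.472 in the other 3. That of Metap2 was 0.650 in one Prmt5-null library and 0.422 to 0.447 in the others. For Naa16 one Prmt5-null value was 0.634 and the other 3 were 1. For Rtel1 one control value was 0.365 and the others 0.241 to 0.255, and for Uba7 one control value was 0.155 and the others 0.286 to 0.311. No cause was tested, since the lists give no library names.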

How the results depend on the processing

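No paired analysis was possible because no label ties a library to one of the experiments and the genotypes share no replicate number. With a difference of at least 0.25, 77 introns had higher and 12 lower retention, and with at least 20 reads in each library 27 had lower retention, by construction of the filters. The share of introns with higher retention that had 7 or more of the commonest donor letters was 13.4% with at least 20 reads, 12.1% where the groups lay apart and 1.30% at 0.25 or more. The alternatives for lower retention and for the donor letters, the split of called genes by direction and the places left out were chosen after seeing the data. Without the 1.5-fold threshold, limma called 2249 genes and 86 of those with a retained intron, 61 lower and 25 higher. Leaving out 1 library gave 792 to 1170 genes called and 38 to 51 with a retained intron, 30 to 43 lower and 7 to 15 higher, the 15 coming without Prmt5-null replicate 10770. The other alternatives kept each count within 1.5 times. Among 17 named genes called by limma, 266 alternative values kept the call and 23 lost it with the same sign, in Camsap3, Ctsa, Nudt16 and Trmt2b. Few spliced reads limit levels near 1.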
